A study of Rattus norvegicus with 30 samples.

Results

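The 10 genes of the MHC and antigen processing set were followed through the growth of the rat testis and through its organotypic culture. They were B2m and RT1-S3 of major histocompatibility complex (MHC) class I, Tap1, Tap2, Psmb8 and Psmb9 of the supply of peptides to class I, and Cd74, RT1-Da, RT1-Ba and RT1-Bb of class II. The members were taken by symbol through the Entrez identifiers of the expression table, and all 10 were found among its 17322 genes. RNA sequencing had been done on testes of Wistar Han rats from 8.5 days postpartum (dpp) to 53.5 dpp, at 6 ages in all, and on explants that were removed at 8.5 dpp and kept in culture until day 6 (D6), day 16 (D16), day 22 (D22) or day 28 (D28). The explants lay on agarose at the gas-liquid interphase in αMEM with Knock-out serum replacement, retinol and vitamin E, and the necrotic centre was removed before RNA extraction. No allele or further agent separated the groups. Different testes were used at each age, and each cultured library pooled explants. Each group had 3 libraries, except 14.5 dpp with 2, because the column of the third library, which the submitters marked as an outlier, was 0 for every gene. The age an explant would have reached in the animal was 14.5 dpp for D6, 24.5 dpp for D16, 30.5 dpp for D22 and 36.5 dpp for D28.

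Class I molecules consist of a heavy chain, such as those of the RT1-A, RT1-CE and RT1-S genes of the rat, and the invariant light chain B2m, and they show peptides from within the cell to cytotoxic T cells and natural killer cells. The peptides are cut by the proteasome, in which Psmb8 and Psmb9 replace constitutive catalytic subunits to form the immunoproteasome, and are carried into the endoplasmic reticulum by the transporter made of Tap1 and Tap2. Class II molecules pair an alpha chain with a beta chain and are made mainly by macrophages, dendritic cells and B cells under the transactivator Ciita, with Cd74, the invariant chain, as their chaperone. The testis shields its germ cells from immune attack by the Sertoli cell barrier and by resident macrophages, and class I is known to be low on germ cells.

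The windows of 250 bases before the annotated start of 6 members are shown because these genes carry the contrasts described below, and because class I and class II promoters share known elements. They are RefSeq sequences of the build GRCr8, given 5′ to 3′ on the strand of the gene, whereas the expression values came from another build. All 10 members matched an entry. Capitals mark matches on either strand to the Y box (ATTGG), the X box (TAGCAAC), the interferon-stimulated response element (GAAA and GAAA with 2 bases of any kind between) and the kappaB site (GGG and TTTCC, with 2 bases of any kind between), which were chosen after these windows had been seen. B2m lies at chr3:129549080-129549329 on the plus strand, RT1-S3 at chr20:2675278-2675527 on the plus strand, Tap1 at chr20:4668544-4668793 on the minus strand, Cd74 at chr18:56526956-56527205 on the plus strand, RT1-Ba at chr20:4576807-4577056 on the plus strand and RT1-Bb at chr20:4604119-4604368 on the minus strand.
B2m: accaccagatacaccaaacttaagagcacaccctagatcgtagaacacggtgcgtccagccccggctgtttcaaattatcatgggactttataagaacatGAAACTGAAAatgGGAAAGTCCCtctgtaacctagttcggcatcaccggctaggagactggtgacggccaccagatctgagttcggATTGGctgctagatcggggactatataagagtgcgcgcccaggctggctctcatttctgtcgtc
RT1-S3: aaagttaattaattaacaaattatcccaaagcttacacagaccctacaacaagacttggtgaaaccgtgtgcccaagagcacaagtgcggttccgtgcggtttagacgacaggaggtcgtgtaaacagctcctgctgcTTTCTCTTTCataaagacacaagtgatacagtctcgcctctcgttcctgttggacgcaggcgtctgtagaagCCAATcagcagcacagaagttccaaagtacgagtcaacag
Tap1: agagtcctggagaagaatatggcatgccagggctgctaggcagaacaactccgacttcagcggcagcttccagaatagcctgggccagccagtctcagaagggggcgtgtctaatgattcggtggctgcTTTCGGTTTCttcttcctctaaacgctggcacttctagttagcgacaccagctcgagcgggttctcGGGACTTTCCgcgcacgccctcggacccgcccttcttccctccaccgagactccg
Cd74: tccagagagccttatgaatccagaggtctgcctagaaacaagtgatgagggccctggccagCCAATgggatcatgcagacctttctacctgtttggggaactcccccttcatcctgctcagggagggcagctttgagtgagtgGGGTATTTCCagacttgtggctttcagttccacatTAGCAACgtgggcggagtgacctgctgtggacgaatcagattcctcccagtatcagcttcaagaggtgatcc
RT1-Ba: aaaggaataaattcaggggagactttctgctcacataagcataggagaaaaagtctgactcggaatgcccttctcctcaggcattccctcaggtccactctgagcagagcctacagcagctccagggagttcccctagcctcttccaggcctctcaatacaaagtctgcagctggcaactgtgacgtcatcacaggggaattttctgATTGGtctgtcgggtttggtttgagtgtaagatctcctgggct
RT1-Bb: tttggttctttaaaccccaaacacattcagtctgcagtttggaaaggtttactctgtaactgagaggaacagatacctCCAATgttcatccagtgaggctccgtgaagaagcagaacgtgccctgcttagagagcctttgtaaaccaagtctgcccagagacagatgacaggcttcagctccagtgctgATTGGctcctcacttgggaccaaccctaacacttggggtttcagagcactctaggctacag

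The window of B2m held an interferon-stimulated response element, a kappaB site and a Y box, with no overlap between them. That of RT1-S3 held the interferon element and the Y box, and that of Tap1 the interferon element and the kappaB site. Cd74 had a Y box, a kappaB site and an X box. RT1-Ba and RT1-Bb, whose levels diverged in the testis as given below, matched only the Y box among the exact letters of the 4 motifs. The X box was searched only as TAGCAAC, and other spellings were not searched. The RT1-Ba window reads tggcaac before its Y box, which is close to those letters. The lack of an exact match therefore does not show that either promoter lacks an X box. A link between these motifs and the divergence was not tested. Among the windows of the other members, Tap2 had an X box and an interferon element, RT1-Da an X box and a Y box, Psmb8 a Y box, and Psmb9 none of the 4. Of the 33469 promoter windows of the same length in the RefSeq table, 34.0% held the Y box, 2.88% the X box, 3.41% the interferon element and 1.3% the kappaB site, against 7, 3, 4 and 3 of the 10 members. Tap1 and Psmb9 are transcribed in opposite directions from starts 457 bases apart, so that their windows overlap in part. The interferon element and the kappaB site of Tap1 lie between these starts but outside the Psmb9 window. The lack of a match for Psmb9 therefore holds only for its own window. A match describes letters and was not tested for binding.

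Levels are FPKM, the number of sequenced fragments scaled to transcript length and to the mapped reads of the library, which allow for gene length. Differences are on the log2(FPKM + 1) scale, which understates the change of low genes, and come from limma with Benjamini-Hochberg adjustment over all genes tested. A gene was called when its adjusted p was at most 0.05 and the medians of the groups differed at least 2-fold. In older testes the whole distribution moved: the median difference of all tested genes against 8.5 dpp was -0.32 at 30.5 dpp, -0.50 at 36.5 dpp and -0.74 at 53.5 dpp. The share of calls that were higher at 53.5 dpp was 32.1%, and 55.8% after scaling each library by its median ratio. For D28 against 36.5 dpp the median of all genes was 0.64 and 66.4% of calls were higher, against 44.9% after scaling. In addition 1973 genes (11.4%) were listed at 0 in all 29 libraries, among them Ppia and 12 of 82 ribosomal protein genes, which every cell uses. A 0 is therefore given here only as a listed value. The labelled tissue was testis, and the 8 Sertoli cell markers summed to between 65.9 and 903 FPKM over the libraries.

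In the testis the class I light chain was highest at the youngest age. B2m stood at 207, 219 and 237 FPKM at 8.5 dpp, at 163 and 110 at 14.5 dpp, and at 102, 55.0 and 59.8 at 24.5 dpp. It was 64.8, 46.3 and 75.5 FPKM at 30.5 dpp, 63.5, 45.6 and 32.1 at 36.5 dpp and 36.2, 28.7 and 44.3 at 53.5 dpp. Every library of 24.5 dpp or later was below every library of 14.5 dpp, and those of 24.5 to 36.5 dpp overlapped. The difference from 8.5 dpp was -0.71 at 14.5 dpp (adjusted p = 0.0841, n = 2 against 3, limma), which missed the threshold, -1.65 at 24.5 dpp (adjusted p = 8.79e-05, limma) and -2.59 at 53.5 dpp (95% interval -3.18 to -1.99, adjusted p = 4.28e-07, limma). All 3 of these differences lay below the median of all genes at the same age. Markers of other cells moved over the same ages: from 8.5 to 53.5 dpp the 7 endothelial markers went from between 49.6 and 52.5 FPKM in sum to between 2.04 and 3.60, the 5 peritubular myoid markers from between 684 and 731 to between 33.9 and 43.0, and the 5 spermatid markers from between 3.74 and 6.79 to between 11763 and 17295. Their part in the levels of B2m, Tap1 and Psmb9 was not tested.

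Tap1 and Psmb9, which share a promoter region, followed the same course. Tap1 was 5.53, 4.84 and 4.30 FPKM at 8.5 dpp, 4.73 and 3.07 at 14.5 dpp, 2.22, 0.934 and 1.24 at 24.5 dpp, 0.786, 0.619 and 0.411 at 36.5 dpp and 0.346, 0.304 and 0.695 at 53.5 dpp. Psmb9 was 8.46, 8.79 and 9.44 FPKM at 8.5 dpp, 10.996 and 6.24 at 14.5 dpp, 4.99, 2.62 and 1.71 at 24.5 dpp, 1.93, 1.81 and 1.43 at 36.5 dpp and 1.05, 1.25 and 1.65 at 53.5 dpp. At 14.5 dpp 1 Tap1 library lay within the range of 8.5 dpp and the other below it, and the Psmb9 libraries lay 1 above and 1 below that range. For both genes those of 24.5 dpp and later lay below it. At 53.5 dpp the difference was -2.03 for Tap1 (adjusted p = 4.99e-08, limma) and -2.10 for Psmb9 (adjusted p = 3.23e-06, limma). Tap2, the partner of Tap1, was listed at 0 in all 29 libraries, and Psmb8 was listed at 0 in all 17 testis libraries, so neither gives a level here. Psmb5, the constitutive subunit that Psmb8 replaces, was 89.3 to 261 FPKM in the same testes.

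Seen over ages, 3 of 8 members tested were called at 14.5 dpp against 8.5 dpp (14.7% of all genes), 4 of 8 at 24.5 dpp (45.3%), 4 of 8 at 30.5 dpp (63.3%), 4 of 8 at 36.5 dpp (68.7%) and 8 of 8 at 53.5 dpp (73.9%). From 24.5 to 36.5 dpp the 4 were B2m, Tap1 and Psmb9, which fell, and RT1-Bb, which rose. At 53.5 dpp 7 fell, against 50.2% of all genes lower. After scaling, 4 of 8 were called at 53.5 dpp, namely B2m, Tap1, Psmb9 and RT1-Bb. RT1-S3 varied little in the testis, between 1.23 and 3.13 FPKM, and its difference at 53.5 dpp, -0.52 as deposited (adjusted p = 0.0257, limma), was 0.29 after scaling.

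Other genes of peptide supply were lower in the adult testis too. All 9 genes of the peptide loading list (Psmb10, Psme1, Psme2, Tapbp, Tapbpl and others) were called lower at 53.5 dpp than at 8.5 dpp. The share of all genes called lower was 50.2%. After scaling, 6 of the 9 were called lower. Over all genes 8568 were then called, and 55.8% of those calls were higher. Among the 9 as deposited were Psme1, a proteasome activator subunit, at -4.99 and Tapbpl, a peptide editor, at -3.91. Psme2, the partner of Psme1, was at -2.98. Psmb10, the remaining immunoproteasome subunit, was 45.3, 30.4 and 21.2 FPKM at 8.5 dpp and listed at 0 in all libraries of 36.5 and 53.5 dpp, so no difference is given for it. Of the 17 genes of the constitutive and germ cell proteasome, 14 were called lower and 2 higher, which were Psma8, an alpha subunit specific to germ cells, at 4.56 and Psme4, the activator used in spermatids, at 1.16. After scaling, 6 of the 17 were called lower and 3 higher, so the lower count depended on the scaling. Psma8 was 88.3, 96.6 and 59.0 FPKM at 24.5 dpp, when meiosis is under way.

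**Figure D1:**
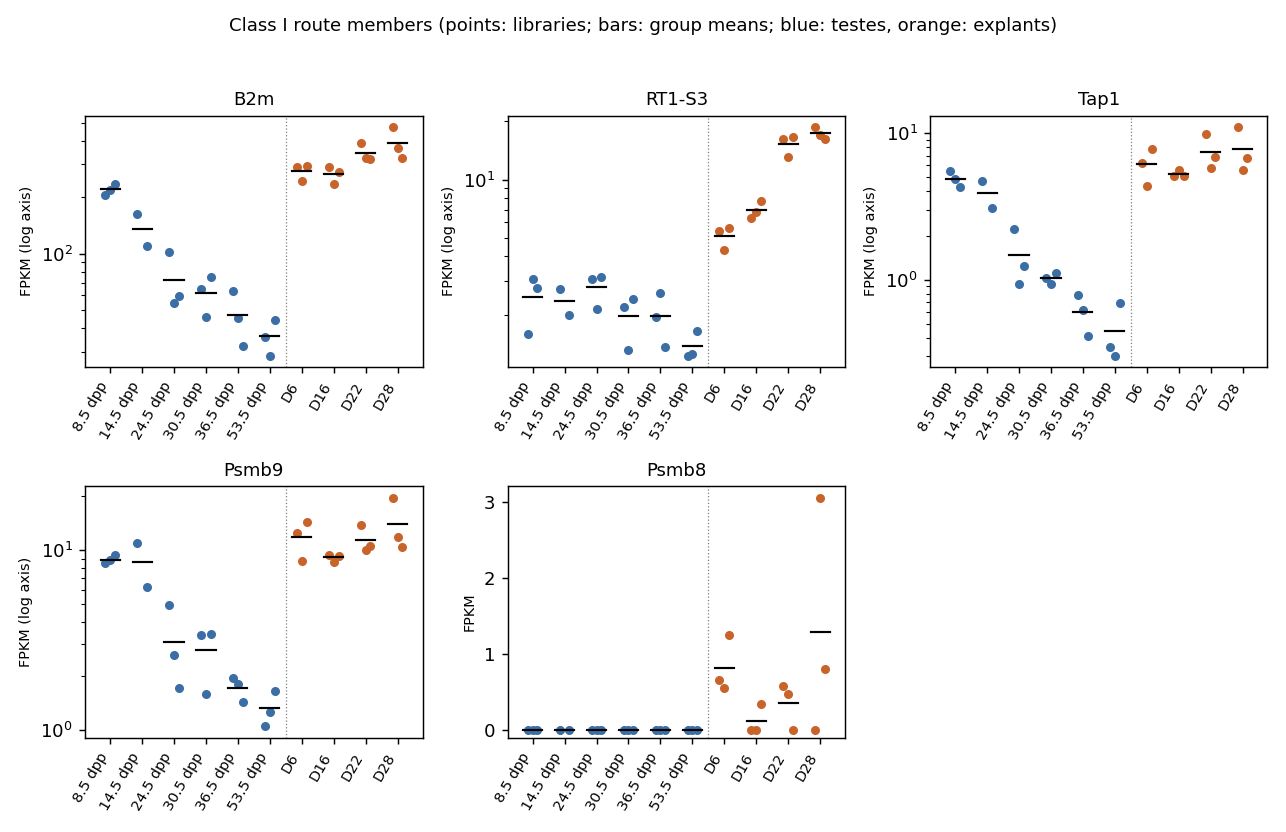
FPKM of 5 members of the class I route in each library (points) with the group mean (bars), by age in the testis (blue) and by days of culture (orange), on log axes except Psmb8. B2m, Tap1 and Psmb9 declined with age and stayed high in culture, and RT1-S3 was higher in the 12 cultured libraries than in any testis.

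In culture the fall of B2m with age was not seen. B2m was 291, 243 and 294 FPKM at D6, 289, 237 and 272 at D16, 392, 324 and 320 at D22 and 475, 369 and 323 at D28. The 12 cultured libraries, of which the lowest was 236.9 FPKM, lay above all 17 testis libraries, of which the highest was 236.5, so the margin was narrow. Against the starting tissue, the difference was 0.32 at D6 (adjusted p = 0.0765, limma), 0.64 at D22 (adjusted p = 0.00151, limma) and 0.80 at D28 (95% interval 0.50 to 1.10, adjusted p = 0.000277, limma). The ratio of medians at D28 was 1.68, under the fold required for a call. In the order of group means, D28, D22, D6, D16 and 8.5 dpp, the libraries of D28 and D22 overlapped, as did those of D6 and D16, and those of D22 and D6 did not.

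Nor was the fall of Tap1 and Psmb9 with age seen in culture. Tap1 was 6.27, 4.34 and 7.75 FPKM at D6, 5.10, 5.57 and 5.10 at D16, 9.77, 5.78 and 6.82 at D22 and 10.97, 5.60 and 6.71 at D28. Psmb9 was 12.6, 8.69 and 14.3 FPKM at D6, 9.46, 8.66 and 9.29 at D16, 13.9, 9.99 and 10.6 at D22 and 19.6, 11.8 and 10.4 at D28. The first replicate of D28 was the highest of all cultured libraries in both genes, and it was also the highest in B2m. At D28 the difference from 8.5 dpp was 0.53 for Tap1 (95% interval 0.04 to 1.02, adjusted p = 0.0601, limma) and 0.55 for Psmb9 (SE 0.21, adjusted p = 0.0364, limma), neither of them a call. The ratio of Psmb9 to Psmb6, the constitutive subunit that it replaces, was 0.289 to 0.342 at 8.5 dpp. It was 0.393 and 0.724 at 14.5 dpp and 0.382 to 0.793 at D28, which overlapped. In older testes it was 0.103 to 0.312 at 24.5 dpp, 0.223 and 0.424 at 30.5 dpp and 0.182 and 0.314 at 36.5 dpp. At 53.5 dpp it was 0.195 and 0.241. Psmb6 was listed at 0 in 30.5 dpp replicate 1, 36.5 dpp replicate 3 and 53.5 dpp replicate 3, which gave no ratio.

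RT1-S3, a nonclassical class I heavy chain, had the largest difference from the starting tissue among the members tested at D16, D22 and D28. It was 1.59, 3.06 and 2.75 FPKM at 8.5 dpp, 5.42, 4.32 and 5.64 at D6, 6.35, 6.77 and 7.73 at D16, 16.3, 13.1 and 16.6 at D22 and 18.7, 17.1 and 16.2 at D28. Each cultured library was above each testis library, and D22 and D28 stood apart from D6 and D16. At D6 the adjusted p was 0.00066 (limma) and the difference 0.84, with a ratio of medians of 1.97, just short of a call. The difference grew to 1.22 at D16 and 2.26 at D22 and was 2.43 at D28 (95% interval 2.09 to 2.77, adjusted p = 3.90e-08, limma). Between D6 and D28 it rose by 1.59 (95% interval 1.32 to 1.85, adjusted p = 1.95e-05, limma). RT1 heavy chain genes are near-identical copies, so reads may have been split among them and each level is uncertain.

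No member was called at D6 against 8.5 dpp (0 of 9 tested, 16.1% of all genes), 1 of 9 at D16 (22.1%) and D22 (23.5%), and 2 of 9 at D28 (24%). At D6 limma gave 3 members an unadjusted p under 0.05, and 1 of them, RT1-S3, was past the adjusted p. The second call at D28 was Psmb8, listed at 0 in all 8.5 dpp libraries and in 1 of 3 at D28, and at 3.05 and 0.802 FPKM in the others. Psmb8 reached the median of 0.5 FPKM required for testing only in cultured groups, so its call shows no more than these listed values. The call was lost without D28 replicate 2 (adjusted p = 0.182, limma), without D28 replicate 3 (0.0664) and without any one 8.5 dpp library (0.0809 to 0.0823). Between D6 and D28, 1 of 9 members was called (5.69% of all genes), RT1-S3.

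The other class I heavy chains moved with RT1-S3. Of 29 tested genes in the list of other class I and class I-like genes, 20 were called higher at D28 than at 8.5 dpp and 1 lower, against 13.6% of all genes higher, and 19 and 1 after scaling. The median of the list was 1.72 and that of all genes 0.04. The largest were RT1-A2 at 2.86, RT1-CE10 at 2.78, RT1-CE2 at 2.75 and RT1-A1 at 2.62, classical and related heavy chains. The one lower gene was Cd1d1, which presents lipids, at -1.04. RT1-A2 was 17.8, 16.7 and 15.8 FPKM at 8.5 dpp and 189, 116 and 95.4 at D28. None of the 9 peptide loading genes was called at D28 against 8.5 dpp (limma), though 5 had an unadjusted p under 0.05 and 3 an adjusted p at or under the threshold with less than the required fold.

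At D28 against 8.5 dpp, 13.6% of all genes were called higher and 24% were called either way. Among 15 tested genes of the interferon pathway and MHC regulators, 4 were called higher there and none lower, also after scaling. They were Irf9, which forms the interferon-stimulated gene factor with Stat proteins, at 2.02, Irf7, a driver of interferon genes, at 1.93, Irf8, a factor of the myeloid lineage, at 1.19, and Ifngr2, a chain of the interferon gamma receptor, at 0.96. Irf7 was near its starting level at D6, 0.02 (95% interval -0.31 to 0.35), and was 1.90 higher at D28 than at D6 (adjusted p = 3.91e-05, limma). Interferon gamma itself, Ifng, was listed at 0 in all libraries. Nlrc5, the class I transactivator, was looked up but not found through RefSeq symbols, so it has no level here. None of these genes was tested as a cause of the class I levels.

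Set beside testes of the matching age, class I members were higher in culture, as were many other genes. At D6 against 14.5 dpp 3 of 9 members were called (7.94% of all genes). They were B2m at 1.03 (adjusted p = 0.0251, limma), RT1-S3 at 0.87 (adjusted p = 0.0239, limma) and Psmb8. Psmb8 was 0.656, 0.558 and 1.25 FPKM at D6 and listed at 0 in both 14.5 dpp libraries. It reached the median of 0.5 FPKM required for testing only at D6, so its call shows no more than these listed values. Leaving out D6 replicate 1, D6 replicate 3 or 14.5 dpp replicate 2 ended all 3 calls, as did dropping the filter on low values, and leaving out D6 replicate 2 ended those of B2m and Psmb8 (adjusted p from 0.0508 to 0.128, limma). At D16 against 24.5 dpp 6 of 8 were called (43.6%), at D22 against 30.5 dpp 5 of 8 (65%) and at D28 against 36.5 dpp 7 of 9 (70.3%). At D28 the difference was 3.05 for B2m (95% interval 2.45 to 3.66), 2.41 for Tap1 (1.88 to 2.94), 2.41 for Psmb9 (1.88 to 2.94) and 2.64 for RT1-S3 (2.26 to 3.03), with adjusted p from 3.15e-06 to 2.97e-05 (limma). The ratios of medians were 8.08, 10.9, 6.55 and 8.76. The counts of members at D22 and D28 were near the share of all genes called. All 4 stayed called after scaling, with differences of 2.12, 1.87, 1.70 and 1.91. The cell makeup differed as well, since at D28 the 5 spermatid markers summed to 3.85 to 4.59 FPKM against 2896 to 4414 at 36.5 dpp, the 5 spermatocyte markers to 19.9 to 36.4 against 247 to 290, and the 7 endothelial markers to 53.1 to 83.6 against 2.78 to 6.93. The part of these cells in the member differences was not tested.

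The other genes of the class I route were higher as well at D28 than at 36.5 dpp. Of 32 tested class I and class I-like genes 26 were called higher and 3 lower, against 46.7% of all genes called higher. After scaling, 17 were called higher and 3 lower. Over all genes 8031 were then called, and 44.9% of those calls were higher. Of the 9 peptide loading genes 6 were called higher with and without scaling, with Psme1 at 3.80, Tapbpl at 3.79 and Psme2 at 2.89. Psmb10, also among the 6, was listed at 0 in all 36.5 dpp libraries and in 1 of D28, and at 37.7 and 14.8 FPKM in the other D28 libraries, so no difference is given for it. Of 15 interferon and regulator genes 14 were called higher, led by Irf1, an activator of class I genes, at 4.04 and Irf7 at 3.20, and 11 higher and 1 lower after scaling. The constitutive and germ cell proteasome depended on the scaling, with 10 of 17 called higher (near the share of all genes) and 1 lower as deposited and 2 and 3 after scaling, and Psma8 was lower by 4.88 on the log2 scale.

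The comparison with age asks whether the gap opened as the testis matured. The difference at D28 against 36.5 dpp minus that at D6 against 14.5 dpp was 2.02 for B2m (adjusted p = 0.00057, limma), 1.88 for Tap1 (0.000975), 1.97 for Psmb9 (0.00103) and 1.78 for RT1-S3 (7.02e-05), and 4 of 9 members were called (62.3% of all genes). For B2m the testis was lower at 36.5 dpp than at 14.5 dpp, and every D28 explant library was above every D6 library, with D28 against D6 at 0.48 (adjusted p = 0.0385, limma) and a ratio of medians of 1.27, under the fold required. For Tap1 the D6 and D28 libraries overlapped. For RT1-S3 the explant rose, and the testis libraries lay between 1.37 and 2.73 FPKM at these ages. After scaling, the B2m value was 1.06 (adjusted p = 0.0225, limma) and missed the fold required, and the other 3 stayed called.

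**Figure D2:**
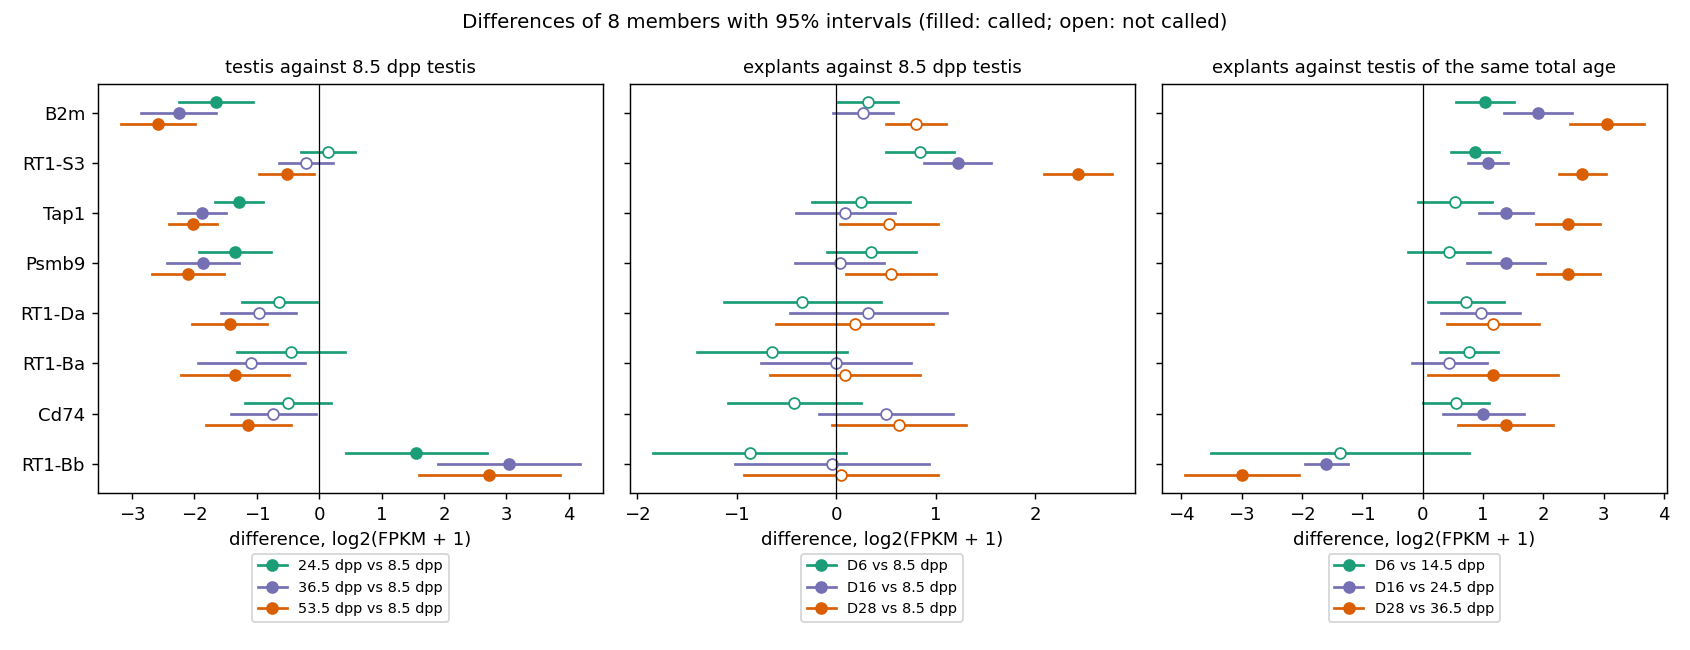
Log2 differences of 8 members with 95% intervals in 3 panels, for the testis against 8.5 dpp, for culture against 8.5 dpp and for culture against the matching age, with filled points for calls. B2m, Tap1 and Psmb9 lie below 0 in the first panel and above 0 in the third, where RT1-Bb lies below 0.

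Against 14.5 dpp, the age at which explants were compared over the longer cultures, 2 of 9 members were called at D16 (11.9% of all genes), 2 of 9 at D22 (12.9%) and 3 of 9 at D28 (13.6%). At D28 these were B2m at 1.51, Cd74 at 1.60 and RT1-S3 at 2.45, with adjusted p of the F test over the 3 times of 0.00183, 0.0265 and 2.77e-05 (limma). The Cd74 call was lost when either 14.5 dpp library was left out, which leaves a single library at that age.

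The class II members had another course. Cd74 was 10.9, 12.7 and 11.2 FPKM at 8.5 dpp, 5.11 and 5.74 at 14.5 dpp, 12.4, 5.17 and 7.50 at 24.5 dpp and 4.05, 3.88 and 6.56 at 53.5 dpp. RT1-Da, the alpha chain of the RT1-D molecule, was 9.49, 12.2 and 11.9 FPKM at 8.5 dpp, 4.73 and 4.93 at 14.5 dpp and 3.85, 2.79 and 3.90 at 53.5 dpp. RT1-Ba, the alpha chain of the RT1-B molecule, was 8.58, 9.64 and 11.1 FPKM at 8.5 dpp, 3.40 and 2.68 at 14.5 dpp and 3.11, 2.57 and 4.07 at 53.5 dpp. The 3 genes were lower at 14.5 dpp and 53.5 dpp than in every 8.5 dpp library, and at 24.5 dpp 1 library of the 3 was back in the range of 8.5 dpp for each gene. At 14.5 dpp the differences were -0.97, -1.06 and -1.41 (adjusted p = 0.0439, 0.0163 and 0.023, limma). Each of the 3 calls was lost when either 14.5 dpp library was left out. Of 13 alternative settings, the Cd74 call was kept in 5, the RT1-Da call in 11 and the RT1-Ba call in 9. At 53.5 dpp they were -1.14, -1.44 and -1.35, and none of the 3 was called after scaling.

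In culture the class II members spread widely among libraries of 1 group. Cd74 was 10.2, 9.56 and 6.01 FPKM at D6, 14.5, 20.2 and 16.2 at D16, 21.4, 10.5 and 7.78 at D22 and 26.4, 13.7 and 17.3 at D28. RT1-Da was 17.5, 10.1 and 11.8 FPKM and RT1-Ba 15.7, 6.02 and 11.5 at D28. At 36.5 dpp Cd74 had been 8.78, 8.21 and 3.74 FPKM, RT1-Da 6.57, 7.23 and 2.79 and RT1-Ba 7.07, 4.88 and 1.71. D22 replicate 1 and D28 replicate 1 were the highest of their groups in Cd74, RT1-Da and RT1-Ba alike. Against 8.5 dpp none of the 3 was called at D28, with a difference of 0.63 (SE 0.31, adjusted p = 0.0963, limma) for Cd74 and 95% intervals of -0.60 to 0.98 for RT1-Da and -0.67 to 0.84 for RT1-Ba. Against 36.5 dpp Cd74 was 1.37 higher at D28 (adjusted p = 0.00561, limma) and RT1-Ba 1.17 (adjusted p = 0.0432, limma). Both calls were lost after scaling (0.52 and 0.38) and without D28 replicate 1 (1.12 and 0.89). The Cd74 call was kept in 12 of 14 alternative settings and the RT1-Ba call in 7 of 14. RT1-Da was 1.16 higher at D28 than at 36.5 dpp (adjusted p = 0.0113, limma). Its ratio of medians was 1.80, under the fold required.

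**Figure D3:**
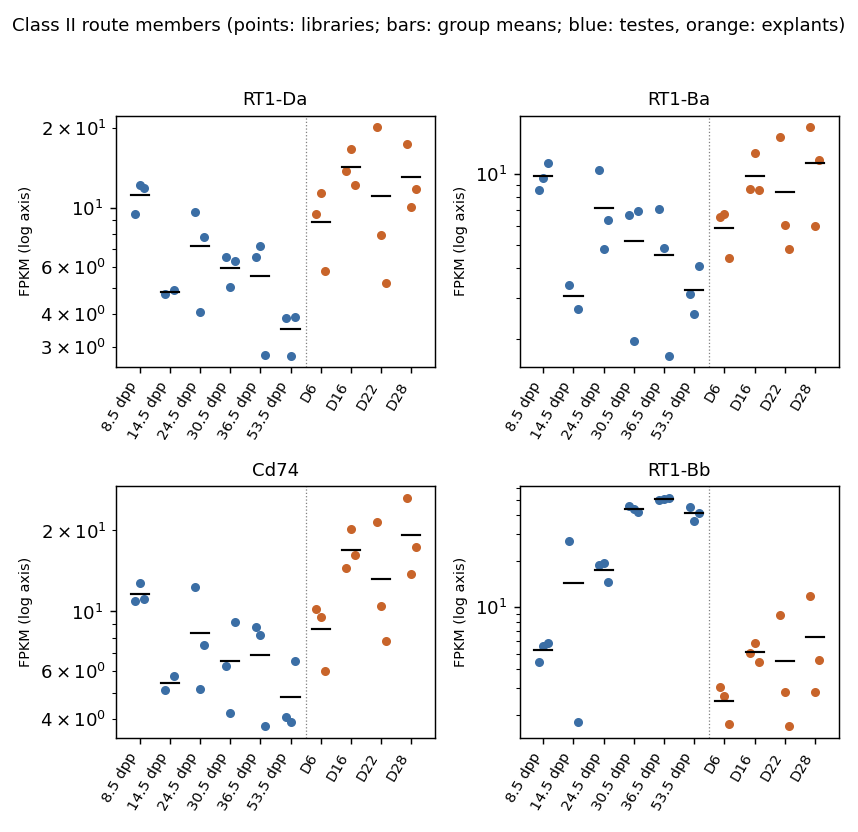
FPKM of the 4 class II members in each library (points) with the group mean (bars) on log axes, for testes (blue) and explants (orange). RT1-Bb was at 36.4 FPKM or more in every library of 30.5 dpp and later while the other 3 stayed under 10, and in culture it lay between 1.68 and 11.9.

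RT1-Bb, the beta chain of the RT1-B molecule, parted from its alpha chain in the testis. It was 4.42, 5.62 and 5.90 FPKM at 8.5 dpp, 18.9, 19.3 and 14.5 at 24.5 dpp and 45.8, 43.2 and 41.7 at 30.5 dpp. It was 50.1, 50.8 and 51.5 FPKM at 36.5 dpp and 44.6, 36.4 and 41.3 at 53.5 dpp. The groups of 24.5 dpp and later did not overlap with 8.5 dpp, and 30.5 and 53.5 dpp overlapped with each other. The difference from 8.5 dpp was 1.55 at 24.5 dpp, 2.83 at 30.5 dpp, 3.04 at 36.5 dpp (95% interval 1.91 to 4.17, adjusted p = 7.58e-05, limma) and 2.73 at 53.5 dpp.

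The 14.5 dpp libraries disagreed, with RT1-Bb at 27.1 FPKM in replicate 1 and 1.80 in replicate 2. The difference from 8.5 dpp was 0.50 with both, -1.17 without replicate 1 and 2.16 without replicate 2. The sign turned on which library was left out, with 1 library remaining at 14.5 dpp, so no level is given for this age. The spermatocyte marker Sycp3, a protein of the synaptonemal complex, was 6.17 FPKM in replicate 1 and 38.4 in replicate 2.

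In culture RT1-Bb was not called against 8.5 dpp at any time, at 3.03, 2.67 and 1.74 FPKM at D6, 5.08, 5.89 and 4.42 at D16, 8.87, 2.81 and 1.68 at D22 and 11.9, 2.81 and 4.53 at D28. The D28 libraries straddled those of 8.5 dpp, with a difference of 0.05 (95% interval -0.93 to 1.02). Against the matching ages it was lower by 1.60 at D16, by 3.26 at D22 and by 3.00 at D28 on the log2 scale, each called. The ratio of RT1-Bb to RT1-Ba, in FPKM, was 0.516 to 0.583 at 8.5 dpp, 1.83 to 4.03 at 24.5 dpp, 7.08 to 30.1 at 36.5 dpp and 10.2 to 14.3 at 53.5 dpp. In the 12 cultured libraries it was 0.348 to 0.757.

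A second pair of chains showed the same direction at a smaller size. The ratio of RT1-Db1, the beta chain of RT1-D, to RT1-Da was 0.470 to 0.518 at 8.5 dpp, 2.22 to 4.36 at 36.5 dpp and 1.96 to 2.68 at 53.5 dpp, and in culture 0.288 to 0.556. RT1-Db1 was 4.92, 6.24 and 5.61 FPKM at 8.5 dpp and 15.1, 16.1 and 12.2 at 36.5 dpp. Ciita, the transactivator, was 0.197 to 0.279 FPKM at 8.5 dpp, 14.5, 17.1 and 18.6 at 36.5 dpp and 0.107, 7.62 and 16.2 at 53.5 dpp, and at most 0.289 in culture. At 30.5 dpp Ciita was 12.2, 36.5 and 0.497 FPKM while RT1-Bb stayed between 41.7 and 45.8. Of the 11 tested genes of the class II pathway, 5 were called higher at D28 than at 36.5 dpp and 3 lower, a share near the 70.3% of all genes called there, the 3 being Ciita at -3.87, RT1-Db1 at -1.28 and RT1-Db2 at -0.89. RT1-DMa and RT1-DMb, which load peptide, were listed at 0 in all libraries.

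**Figure D4:**
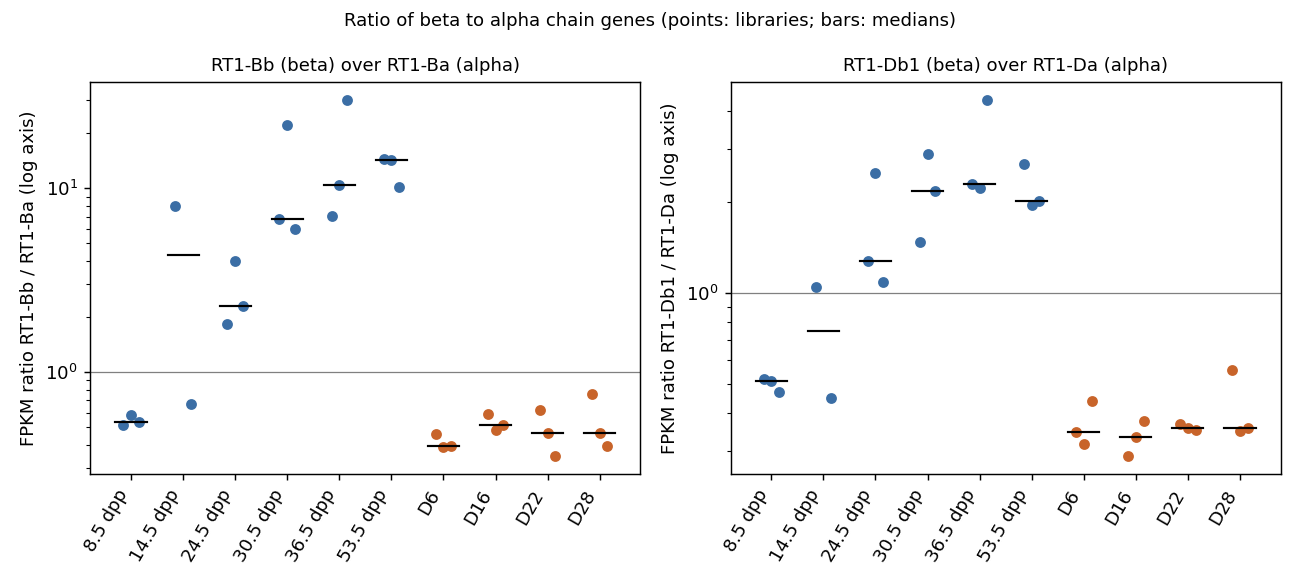
Ratio of beta to alpha chain FPKM in each library, RT1-Bb to RT1-Ba and RT1-Db1 to RT1-Da, on log axes with group medians as bars. Both ratios were above 1 in every testis of 24.5 dpp and later and below 1 in all 12 cultured libraries.

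Bulk libraries cannot tell fewer cells of a type from less RNA per cell, so markers of cells that carry class II are given beside these levels. The 12 macrophage markers summed to 67.6 to 85.9 FPKM at 8.5 dpp, 45.4 to 48.9 at 14.5 dpp, 35.3 to 46.9 at 24.5 dpp, 47.5 to 103 at 30.5 dpp, 129 to 142 at 36.5 dpp and 236 to 273 at 53.5 dpp. In culture the sums were 86.3 to 108 at D6, 85.7 to 96.7 at D16, 81.9 to 133 at D22 and 92.2 to 168 at D28. The rise in the adult testis lay in Aif1, which reached 191 to 240 FPKM at 53.5 dpp against at most 7.30 at 8.5 dpp. Without Aif1, a choice made after the values were seen, the other 11 markers summed to 31.2 to 78.6 FPKM in testes and 75.6 to 159 in explants. The highest sums, 125 and 159, were those of D22 replicate 1 and D28 replicate 1, which also had the highest sums of Cd74, RT1-Da and RT1-Ba, 56.0 and 59.7 FPKM.

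Per unit of this macrophage sum, the class II sum was 0.383 to 0.512 at 8.5 dpp and 0.343 to 0.440 at D28, which overlap. This ratio was 0.260 to 0.651 at 36.5 dpp, the age matching D28, and that range contains the D28 range. It was 0.282 to 0.318 at 14.5 dpp and 0.280 to 0.331 at 53.5 dpp, both below D28. At 24.5 dpp it was 0.398 to 0.692 and at 30.5 dpp 0.319 to 0.541, which overlap with D28. It was 0.162 to 0.344 at D6, 0.406 to 0.554 at D16 and 0.236 to 0.446 at D22. The comparison with 36.5 dpp depended on leaving out Aif1. With Aif1 included, the ratio was 0.0615 to 0.174 at 36.5 dpp and 0.320 to 0.440 at D28, which do not overlap. Of the 10 macrophage markers tested, 4 were called higher at D28 than at 8.5 dpp and none lower. Of all genes, 13.6% were called higher and 24% either way. Cd163, a marker of resident macrophages, was listed at 0 in all 12 cultured libraries, and Itgam reached at most 0.091 FPKM in any library. The 6 dendritic cell markers summed to 21.7 to 23.6 FPKM at 8.5 dpp, 18.7 to 21.8 at 14.5 dpp and 3.70 to 10.1 at later ages, and in culture to 22.4 to 30.4 at D6, 13.9 to 15.4 at D16, 13.5 to 15.4 at D22 and 14.7 to 19.7 at D28. Most of this came from Zbtb46 (7.43 to 12.999 FPKM in culture) and Batf3 (3.74 to 16.7), while Clec9a was 0.139 to 0.399, above every testis library, and Flt3 at most 0.169. The 4 B cell markers summed to at most 2.05. The 8 T and natural killer cell markers summed to 5.25 to 5.78 FPKM at 8.5 dpp, 31.4 to 34.3 at D6 and 17.3 to 19.5 at D28, against 2.20 to 20.8 in the older testes. Cd8a was 8.67 to 25.0 FPKM and Cd4 3.12 to 8.39 in culture, above every testis library for both, Cd3e was 0.554 to 1.21 in culture against 0.252 to 4.27 in testes, and Cd3d and Cd3g were listed at 0 in every cultured library. The part of these cells in the MHC levels was not tested.

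**Figure D5:**
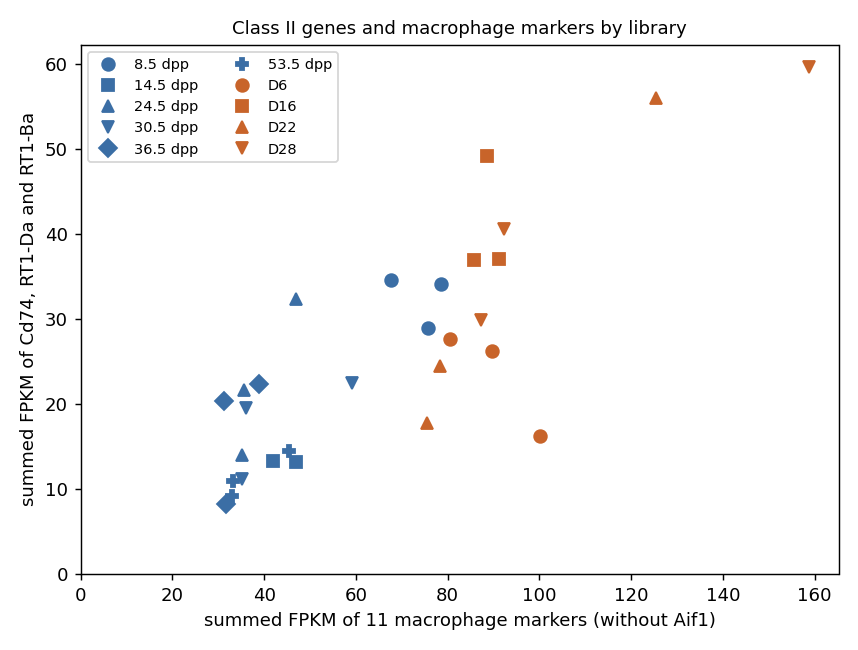
Summed FPKM of Cd74, RT1-Da and RT1-Ba against the summed FPKM of 11 macrophage markers without Aif1, 1 point a library, linear axes, testes in blue and explants in orange. D22 replicate 1 and D28 replicate 1 lie at the upper right.

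Across the 29 libraries the members fell into groups of like course, given as a description because libraries of 1 group share age or culture and all share the normalization. Pearson's r was 0.982 between B2m and Tap1, 0.981 between Tap1 and Psmb9, 0.945 between Cd74 and RT1-Da and -0.829 between B2m and RT1-Bb. The genes most like B2m were Fcer1g at 0.986, Zfp503 at 0.985, LOC100910973 at 0.985, C1qtnf5 at 0.981 and Ly6e at 0.981. Those most like Cd74 were Apoe at 0.834, Gja5 at 0.831, Cd180 at 0.829, Htra4 at 0.825 and C1qc at 0.824. For RT1-Bb, added after its values were seen, Ptpn18 at 0.933 and Elmod3 at 0.922 led, and among 4 germ cell markers r was 0.844 with Psma8, 0.738 with Sycp3, 0.696 with Hormad1 and 0.385 with Dmc1.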

How the data were processed

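The deposited table held FPKM values per gene for 30 libraries, of which 1 column at 0 for all genes was left out, and it held no counts. Per the labels and methods, the authors demultiplexed with bcl2fastq 2.17.1.14, aligned with STAR 2.5.2a to the rat build rn6 and quantified RefSeq genes with StringTie and Ballgown to give FPKM from stranded single-end reads, and the submitters' processing notes also name limma. The reference is a Brown Norway genome and the animals were Wistar Han, and the effect of this on RT1 genes was not tested. Entrez identifiers were matched to symbols through RefSeq for 17172 of 17322 genes. The members and lists were chosen with earlier results of these data known. Genes entered limma 3.58.1 (R 4.3.3) on log2(FPKM + 1) when the median of any group in the fit reached 0.5 FPKM, with D16, D22 and D28 against 14.5 dpp tested by 1 F test and the other contrasts by moderated t. Named genes were the members, a fixed set (Nlrc5, Ciita, Tapbp, Psmb10, Ifng, Psmb5, Psmb6, Psma8), up to 4 called genes per list with the largest differences, and the 5 most correlated genes. Ppia, Cd1d1, Psme4, Sycp3, Hormad1, Dmc1, Cd3d, Cd3e, Cd3g, Cd4, Cd8a, Cd163, Itgam, Flt3, Zbtb46, Batf3, Clec9a, Aif1, Irf8, Ifngr2, RT1-Db1, RT1-DMa and RT1-DMb were named after their values were seen where the rule did not reach them. The depth behind each value is unknown, and spacing of low values over 858 genes gave relative depths from 0.776 to 1.145. The p-values measure the spread between libraries, which for explants is that between pools. Python 3.11.15 with pandas 2.3.3 and matplotlib 3.10.9 prepared tables and plots. The fitting was tested on simulated data. Alternatives were another pseudocount, filters, scaling by median ratio, 1 fit of all libraries, an intensity trend, no fold minimum, a replicate block and leaving out each library.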

Additional observations from a re-analysis of the deposited data

Results flagged for a closer look

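The difference between D28 and 36.5 dpp exceeded that between D6 and 14.5 dpp for 4 members by a test of the difference itself (limma, Benjamini-Hochberg adjustment over all genes). It was 2.02 on the log2 scale for B2m (adjusted p = 0.00057), 1.88 for Tap1 (adjusted p = 0.000975), 1.97 for Psmb9 (adjusted p = 0.00103) and 1.78 for RT1-S3 (adjusted p = 7.02e-05). The same test called 62.3% of all genes, and the median over all genes was 0.63.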

How the results depend on the processing

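Of 852 recomputed member differences that were called as reported, 784 were called again and 851 kept their sign, 73 others became called, and 43 that were called neither way changed sign. The counts of called members stayed within 1.5 times in 215 of 255 recomputations. The exceptions, with the count as reported first, were as follows, and the cause was not tested. With no filter on low values, D16 against 14.5 dpp went from 2 to 1, D6 against 14.5 dpp from 3 to 0, 14.5 against 8.5 dpp from 3 to 1 and D28 against 8.5 dpp from 2 to 1, and a filter at 1 FPKM also gave 1 there. All 29 libraries in 1 fit gave 4 for D16 and 5 for D28 against 14.5 dpp, as did the moderated t of the contrast alone (4 and 5), and gave 1 for D6 against 8.5 dpp (0 as reported), as did a pseudocount of 0.1. No fold minimum gave 7 for 30.5 and 7 for 36.5 dpp against 8.5 dpp, 1 for D6, 2 for D22 and 4 for D28 against 8.5 dpp, and 3 for D28 against D6. Scaling by median ratio gave 4 in place of 8 at 53.5 dpp, and turned RT1-S3 there to 0.29. Leaving out 14.5 dpp replicate 1 turned RT1-Bb at 14.5 dpp to -1.17, and leaving out replicate 2 gave 2.16.

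Leaving out 1 library at a time gave 1 to 3 members for D16, 1 to 4 for D22 and 2 to 5 for D28 against 14.5 dpp, 0 to 2 for D6 against 14.5 dpp, 5 to 8 for D22 against 30.5 dpp, 1 to 2 for 14.5 dpp, 4 to 7 for 30.5 dpp, 0 to 1 for D6 and 1 to 2 for D28 against 8.5 dpp, and 1 to 2 for D28 against D6. The library behind the 8 was D22 replicate 3 and that behind the 7 was 30.5 dpp replicate 3. Scaling also moved the share of calls that were higher, from 64.8% to 46.0% for D22 against 30.5 dpp, from 39.8% to 54.7% at 30.5 dpp, from 36.9% to 55.4% at 36.5 dpp, from 57.0% to 42.5% at 14.5 dpp, from 61.4% to 49.0% for D6 against 8.5 dpp and from 72.2% to 47.9% for the difference of differences.

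Same-numbered libraries did not pair: correlations of their deviations from the group means were between -0.131 and 0.218, and in no pair of groups were all above 0.1. A replicate block gave 0 called members for D6 against 14.5 dpp and changed no other count by over 1.5 times. FPKM without counts leave low genes such as Psmb8 with unknown counting error.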
